A study of Mus musculus with 6 samples.

Results

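The 54 genes described here encode the transcription factors, membrane proteins, luminal enzymes and proton pump of the lysosome. They were taken from a list of symbols grouped by known function, drawn up with earlier results of these data known, and all 54 were found among the 53465 genes of the count tables and passed the filter on low counts. Expression was measured by poly(A)-selected mRNA sequencing in 6 cultures of Royan B20, a mouse embryonic stem cell line, grown on 0.1% gelatin and passaged 7 times in R2i medium with LIF. All 6 cultures thus received 1 µM of the MEK inhibitor that the labels spell PD0329501 and 10 µM SB431542, which blocks TGF-beta, activin and nodal receptors. The 3 R2i_control cultures received nothing further. The 3 R2i_BMPi cultures, called BMP-inhibited below, were given 5 µM dorsomorphin, which blocks the kinases of BMP receptors, together with 250 nM noggin, a protein that binds BMPs outside the cell. Replicates are biological per the labels, all from 1 cell line, and the treatment time is not given in the sources used here. Dorsomorphin is also known to inhibit AMP-activated protein kinase, so effects of the agents other than loss of BMP signalling cannot be told apart in this design.

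Lysosomes are acidic compartments in which hydrolases break down proteins, glycans, lipids and nucleic acids delivered by endocytosis and autophagy. The vacuolar proton pump, or V-ATPase, acidifies them: its membrane-embedded V0 part carries protons and its cytosolic V1 part hydrolyses ATP. The helix-loop-helix factors TFEB, TFE3 and MITF are known to bind E-box letters in the promoters of many lysosomal genes, and the kinase mTORC1, acting at the lysosome with Rag GTPases and folliculin, holds them in the cytoplasm. In mouse embryonic stem cells nuclear TFE3 is known to sustain self-renewal.

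To show where those E-box letters lie, the RefSeq promoter windows (GRCm38.p6, 250 bases before to 50 after a start site) were searched for TCACGTGA and for its core CACGTG, both of which read the same on either strand. The core lies inside the 8-base motif, so the searches overlap. Windows were found for 46 of the 54 genes. The 8-base motif was in the windows of 7 of these 46 (15.2%), against 304 of 27025 genes in the whole promoter table (1.12%) and 234 of 11474 tested genes with a window (2.04%). The core was in 16 of 46 (34.8%), against 8.09% of all genes in the table and 11.5% of tested genes with a window. Among the further lysosome genes described below, autophagy genes left out, 69 had a window. Of these 6 held the 8-base motif (8.7%) and 14 the core (20.3%). A match describes letters in a window and is not a measured binding site. The 7 genes with the 8-base motif are shown because they carry the most complete match, with the motif in capitals. Lamp1 is added for its 4 copies of the core, which are in capitals there.
Mcoln1 (chr8:3500462-3500491, plus strand): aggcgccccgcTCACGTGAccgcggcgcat
Ctsa (chr2:164833749-164833772, plus strand): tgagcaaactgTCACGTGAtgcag
Cln3 (chr7:126583340-126583369, minus strand): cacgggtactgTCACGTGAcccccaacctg
Ctsd (chr7:142387908-142387937, minus strand): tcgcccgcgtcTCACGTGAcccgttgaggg
Gla (chrX:134601215-134601244, minus strand): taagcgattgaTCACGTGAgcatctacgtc
Atp6v0d1 (chr8:105566050-105566079, minus strand): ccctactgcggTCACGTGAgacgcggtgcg
Atp6v1a (chr16:44139359-44139416, minus strand): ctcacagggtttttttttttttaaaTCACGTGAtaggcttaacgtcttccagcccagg
Lamp1 (chr8:13159075-13159160, plus strand): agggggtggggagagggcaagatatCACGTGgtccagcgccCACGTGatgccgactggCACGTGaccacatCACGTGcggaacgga
The motif began 46 bases before the RefSeq start site in Mcoln1, 99 before it in Ctsd, 122 in Cln3 and 132 in Atp6v1a, and it spanned the start site of Atp6v0d1. Gla held 2 copies, 228 and 195 bases before the start, of which the more distant is shown, and Ctsa held 1 copy 13 bases before the start and another 5 bases after it. In GENCODE M21, whose transcripts can start further upstream, the copies shown for Mcoln1, Ctsa, Cln3 and Ctsd fall in an exon of the gene, that of Atp6v1a in an intron, and those of Gla, Atp6v0d1 and Lamp1 before the gene. The stretch shown for Gla also touches an exon of the neighbouring gene Hnrnph2.

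Most of the lysosomal genes were lower in BMP-inhibited cells, by modest amounts, and 7 enzyme genes were higher. Of the 54 genes 35 fell, 7 rose and 12 did not pass edgeR's quasi-likelihood test at an adjusted p of 0.05, fitted over all 15951 genes tested with Benjamini-Hochberg adjustment. That is 64.8% lower and 13% higher, where 64.2% of all genes tested passed, 31.7% lower and 32.5% higher. The median log2 fold change of the 54 genes was -0.32, against -0.0031 over all genes tested. At least 2-fold changes were fewer: 4 genes fell that far (Sgsh, Lamp2, Ctsl and Idua) and 2 rose (Ctsh and Lipa), where 7.46% of all genes fell and 8.01% rose by this much. The 2 groups of libraries did not overlap for 44 of the 54 genes, 35 with lower and 9 with higher values in BMP-inhibited cells. Over all genes tested the groups were apart for 68.6%, 34.1% with lower and 34.5% with higher values.

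**Figure D1:**
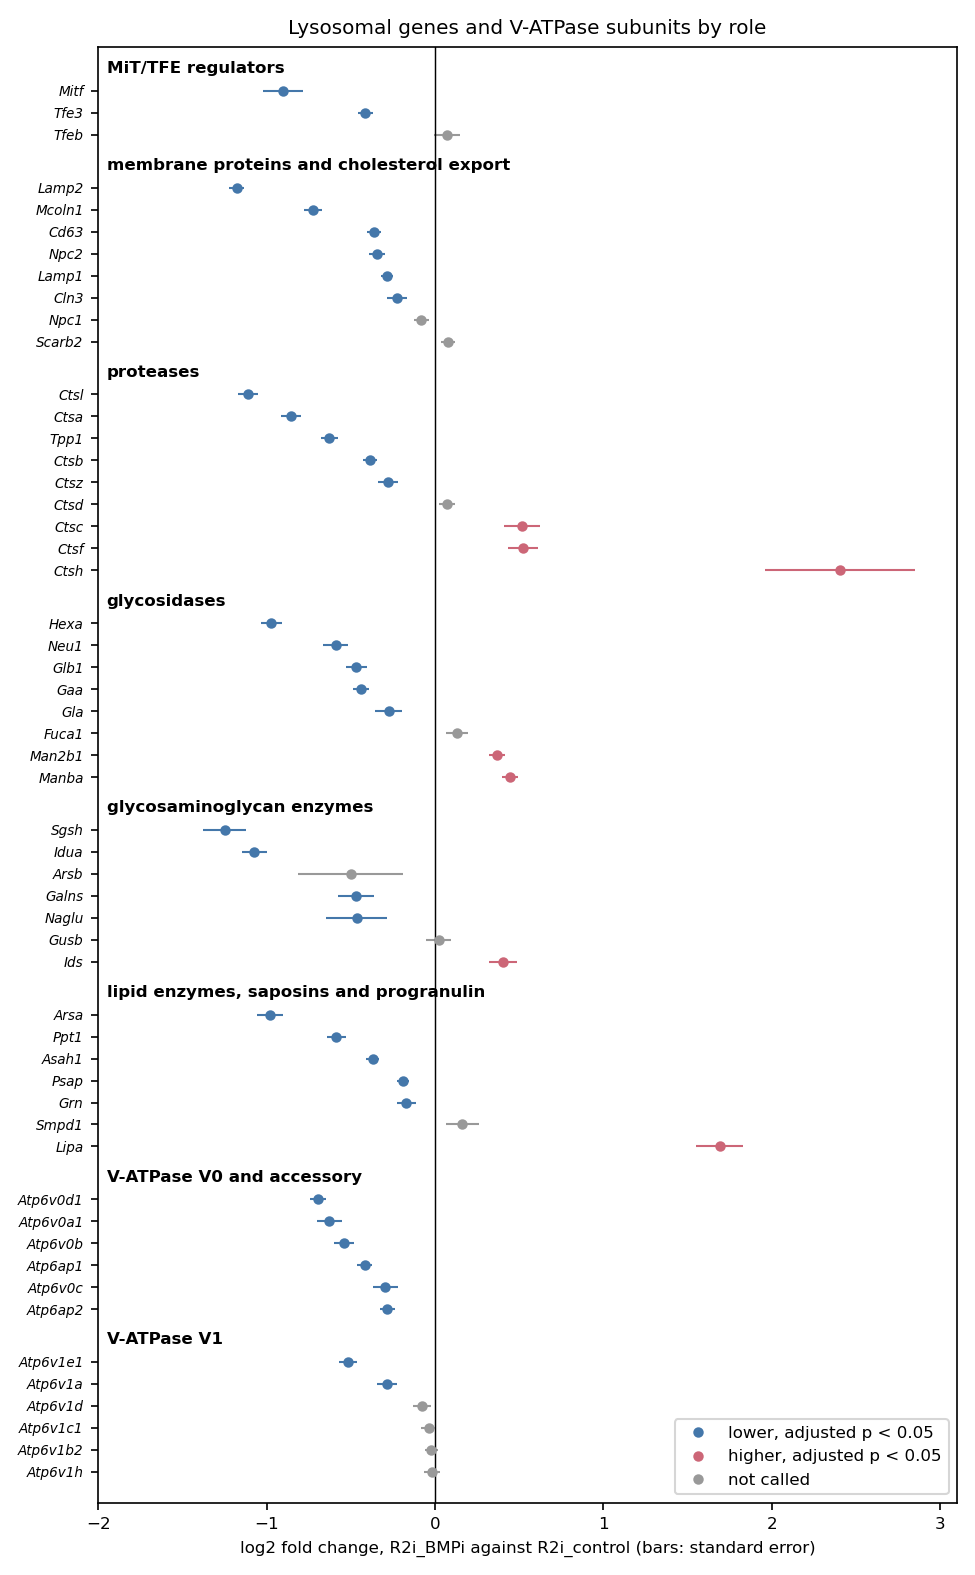
Log2 fold change of each of the 54 genes in BMP-inhibited against control cells, with bars for the standard error, grouped by role; colours mark the genes that passed the test. The V0 subunits all lie to the left of 0, 4 of the 6 V1 subunits lie near it, and Ctsh (2.40) and Lipa (1.69) lie furthest to the right.

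Levels here are CPM, read counts scaled to library size with TMM factors. Summed over the 54 genes they were 8946, 8875 and 8999.8 CPM in the control libraries and 6828, 7446 and 7009.8 CPM in the BMP-inhibited ones. The sum was 20.6% lower on average, and every BMP-inhibited library lay below every control library. By role, the summed level was 30.9% lower for proteases, 29% for V0 and accessory subunits, 26.9% for the regulators, 26.7% for glycosaminoglycan enzymes and 20.6% for membrane proteins. It was 16% lower for glycosidases, 15.1% for lipid enzymes, saposins and progranulin, and 10.1% for V1 subunits. In a bulk library, a smaller share of cells with an RNA and less of that RNA in each cell cannot be told apart.

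Library depth was alike, at 31474666 to 35322844 gene counts. Spread within the BMP-inhibited group exceeded that within the control group: the coefficient of variation had a median of 7.19% over the 54 genes, against 2.14% in control, and over all genes tested the medians were 8.39% and 4.7%. BMP-inhibited replicate 2 lay nearer the controls on the first principal component, at 47.6 against 56.9 and 57.7 for replicates 1 and 3, with controls at -54.8 to -53.7. It was the BMP-inhibited library nearest the control mean for 27 of the 42 lysosomal genes that passed the test (64.3%), and for 49.2% of all genes that passed. Leaving it out kept all 42 calls and added Atp6v1d. Of the 6 embryonic stem cell markers 4 fell (Nanog, Esrrb, Sox2 and Tfcp2l1, with log2 fold changes of -0.47, -0.32, -0.25 and -0.13) and 0 rose, while Pou5f1 and Zfp42 did not pass. The share that fell was 66.7% of 6 genes, where 64.8% of the lysosomal genes and 31.7% of all genes tested fell. The summed level of these 6 markers was 3699 to 3814 CPM in control and 3190.4 to 3317 CPM in BMP-inhibited libraries. Of 8 trophectoderm markers 6 were tested and 4 rose (66.7%, where 32.5% of all genes tested rose). The 8 markers summed to 168 to 171 CPM in control and 297 to 374 CPM in BMP-inhibited libraries. Hand1, which rose, had 4, 4 and 2 counts in control and 173, 161 and 245 in BMP-inhibited libraries. It passed the count filter only through the BMP-inhibited libraries. Of 8 endoderm markers 3 rose (42.9%) and 2 fell (28.6%) among 7 tested, with sums of 32.4 to 34.9 and 24.2 to 25.7 CPM. Of 6 fibroblast markers 2 rose (66.7%) among 3 tested, at sums of 5.53 to 6.94 and 8.41 to 9.43 CPM. Postn, which rose, had 0, 0 and 2 counts in control and 23, 10 and 14 in BMP-inhibited libraries. It too passed the filter only through the latter. Macrophages are rich in lysosomes, and of 6 macrophage markers 3 were tested, of which 1 rose, 1 fell and 1 did not pass. Csf1r rose, from 1, 2 and 2 counts in control to 41, 13 and 36 in BMP-inhibited libraries (edgeR adjusted p = 1.87e-05). It rests on few counts and passed the count filter only through the BMP-inhibited libraries. Mrc1 fell, with a log2 fold change of -1.07 (edgeR adjusted p = 0.000955), and Spi1 did not pass. Ptprc had at most 3 counts in any library, and Adgre1 and Lyz2 had 0 counts in all 6. The 6 markers summed to 6.26 to 8.80 CPM in control and 6.49 to 7.09 CPM in BMP-inhibited libraries. The part of these cell types in the results was not tested.

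Of the 3 transcription factor genes, Mitf and Tfe3 fell and Tfeb did not pass the test. Mitf (ENSMUSG00000035158, GRCm38 chromosome 6, 97807052 to 98021349) was at 54.4, 59.1 and 60.6 CPM in control replicates 1, 2 and 3 and at 29.3, 39.6 and 24.3 CPM in the BMP-inhibited replicates. The groups did not overlap, and BMP-inhibited replicate 2 was the highest of its group. Its log2 fold change was -0.90 with SE 0.12 (adjusted p = 6.81e-06). Tfe3 (ENSMUSG00000000134, chromosome X, 7762560 to 7775202) was at 154, 149 and 161 CPM in control and at 115, 117 and 116 CPM in BMP-inhibited libraries. All 3 BMP-inhibited libraries lay close together and below the controls, a log2 fold change of -0.41 with SE 0.04 (adjusted p = 6.83e-07). Tfeb (ENSMUSG00000023990, chromosome 17, 47737030 to 47792419) was at 26.5, 26.3 and 25.4 CPM in control and at 24.5, 30.4 and 27.3 CPM in BMP-inhibited libraries. Its groups overlapped, and its log2 fold change of 0.07 had a 95% interval of -0.10 to 0.24 (adjusted p = 0.448). Per kilobase of annotated exon, control cells held more Tfe3 RNA (16.7 CPM per kb) than Mitf (9.36) or Tfeb (4.60).

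Membrane proteins of the lysosome were lower in most cases: 6 of 8 fell (75%, against 31.7% of all genes tested), 0 rose and 2 did not pass. Lamp2 encodes a heavily glycosylated protein of the lysosomal membrane that also serves chaperone-mediated autophagy. Lamp2 (ENSMUSG00000016534, chromosome X, 38401357 to 38456454) was at 142, 145 and 149 CPM in control and at 65.97, 62.1 and 64.5 CPM in BMP-inhibited libraries, less than the lowest control in each. Its log2 fold change was -1.18 with SE 0.05 (adjusted p = 1.2e-11), with the smallest p among the 54 genes. Mcoln1, which encodes the calcium channel TRPML1, was at 124, 125 and 123 CPM in control and at 72.01, 81.7 and 72.02 CPM in BMP-inhibited libraries, a log2 fold change of -0.72 (SE 0.05). Its groups were well apart, with BMP-inhibited replicate 2 again the highest of its group.

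Lamp1 encodes the other main glycoprotein of this membrane. Its level was 859, 848 and 872 CPM in control and 697, 707 and 711 CPM in BMP-inhibited libraries, a log2 fold change of -0.29 (SE 0.04). Per kilobase of exon it had the highest mean of the 54 genes in control cells, at 321 ± 4.45 CPM per kb (SD, n = 3), followed by Psap at 311 ± 6.38 and Hexa at 151 ± 1.15. Next came Ctsd at 126 ± 1.96 and Grn at 124 ± 1.09 CPM per kb. The ranges of mean ± SD overlap for Lamp1 and Psap and again for Ctsd and Grn, so the order within each pair is not resolved, and Ctsh was the lowest at 0.0440. Cd63, a tetraspanin of late endosomes, was at 220.3, 205 and 210.4 CPM in control and at 163, 165 and 166 CPM in BMP-inhibited libraries (log2 fold change -0.36). Npc2, which hands cholesterol to NPC1 inside the lysosome, was at 329, 319 and 327 CPM in control and at 238, 269.5 and 260.2 CPM in BMP-inhibited libraries (log2 fold change -0.34). For all 3 of these genes every BMP-inhibited library was below every control. Cln3, a membrane protein affected in juvenile Batten disease, fell as well, with a log2 fold change of -0.22 with SE 0.06 (adjusted p = 0.00367). Npc1, the membrane partner of Npc2 in cholesterol export, had a log2 fold change of -0.08 (95% interval -0.18 to 0.01), and Scarb2, which carries glucocerebrosidase to lysosomes, one of 0.08 (-0.01 to 0.17). Neither passed the test, although Npc1 passed as lower under scaling by library totals (-0.14, adjusted p = 0.0118).

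Of 9 protease genes 5 fell (55.6%), 3 rose (33.3%) and 1 did not pass. Over all genes tested 31.7% fell and 32.5% rose, so the share that rose was near that of all genes. The 5 that fell were abundant, from a control mean of 96.0 CPM for Ctsz to 447 CPM for Ctsa, while the 3 that rose had control means from 0.198 CPM for Ctsh to 15.2 CPM for Ctsf. Ctsl encodes cathepsin L, a cysteine protease. Ctsl (ENSMUSG00000021477, chromosome 13, 64359337 to 64370890) was at 383, 373 and 378 CPM in control and at 168, 195 and 162 CPM in BMP-inhibited libraries. The groups were far apart, a log2 fold change of -1.11 with SE 0.06 (adjusted p = 2.51e-10). Ctsa, whose product protects beta-galactosidase and neuraminidase in a complex, was at 446, 445 and 451 CPM in control and at 222, 277 and 243 CPM in BMP-inhibited libraries, with a log2 fold change of -0.86 (SE 0.06). Here too replicate 2 was the BMP-inhibited library nearest the controls.

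Tpp1, a tripeptidyl peptidase, was at 235, 235 and 232 CPM in control and at 143, 164 and 148 CPM in BMP-inhibited libraries (log2 fold change -0.63). Ctsb, cathepsin B, was at 264, 269.98 and 271 CPM in control and at 198, 211 and 206 CPM in BMP-inhibited libraries (log2 fold change -0.39). In both genes the groups were separate, and Ctsz fell by 0.28 on the log2 scale. Cathepsin D, the main aspartic protease of the lysosome, differed from these: Ctsd was at 292, 293 and 301 CPM in control and at 296, 331 and 305 CPM in BMP-inhibited libraries. Its groups overlapped, and its log2 fold change of 0.07 (95% interval -0.03 to 0.17, adjusted p = 0.18) did not pass. Without BMP-inhibited replicate 1 it passed as higher (log2 fold change 0.11, adjusted p = 0.0323).

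The protease genes that rose were Ctsf, Ctsc and Ctsh. Ctsf, a cysteine cathepsin, was at 16.97, 14.5 and 14.02 CPM in control and at 20.6, 23.7 and 21.01 CPM in BMP-inhibited libraries (log2 fold change 0.52, SE 0.09). Ctsc, a dipeptidyl peptidase that activates granule proteases in immune cells, rose by 0.52 as well (SE 0.11). For both, all BMP-inhibited libraries lay above all controls. Ctsh, an aminopeptidase of the same family, had 4, 14 and 3 counts in the control libraries and 31, 34 and 38 in the BMP-inhibited ones, which is 0.117, 0.386 and 0.0905 CPM against 1.001, 1.09 and 1.16 CPM. Its log2 fold change of 2.40 with SE 0.44 (adjusted p = 0.000181) rests on few counts, and Ctsh passed the count filter only through the BMP-inhibited libraries. Without control replicate 2, the highest of the controls, the log2 fold change was 3.33, a fold change over 1.5 times larger.

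**Figure D2:**
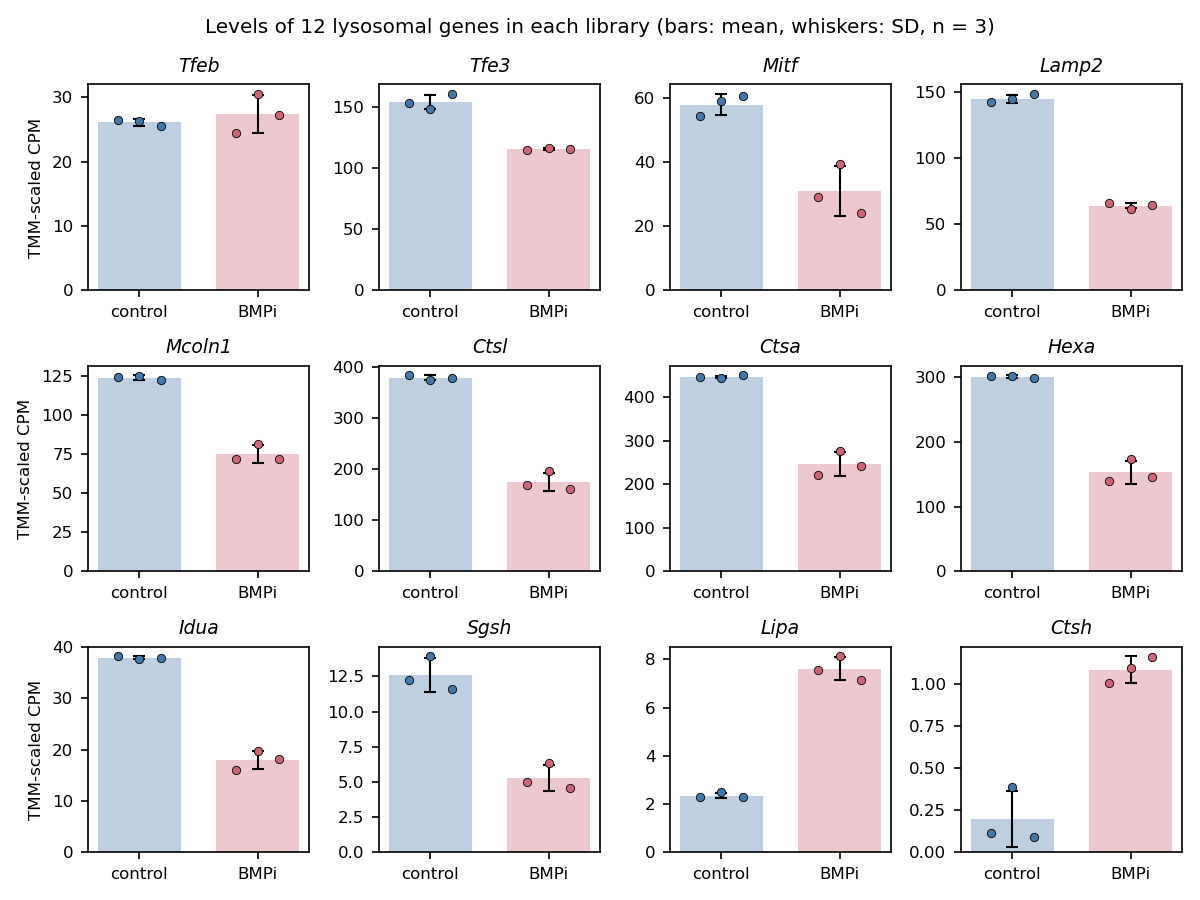
TMM-scaled CPM of 12 genes in each of the 3 control and 3 BMP-inhibited libraries, as points, with bars for the mean and whiskers for the SD. Mitf, Tfe3, Lamp2, Mcoln1, Ctsl, Ctsa, Hexa, Idua and Sgsh are lower in every BMP-inhibited library than in every control, Lipa and Ctsh are higher, and Tfeb overlaps.

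Glycosidase genes, for enzymes that trim sugars from glycoproteins, glycolipids and glycogen, had 5 fallers, 2 risers and 1 that did not pass among 8. This is 62.5% lower and 25% higher, against 31.7% and 32.5% of all genes tested. Hexa encodes the alpha subunit of beta-hexosaminidase, which degrades GM2 ganglioside. It was at 302, 301 and 298 CPM in control and at 139.7, 174 and 146 CPM in BMP-inhibited libraries. The groups were far apart, a log2 fold change of -0.97 with SE 0.06 (adjusted p = 2.64e-09). Gaa, acid alpha-glucosidase, which breaks down glycogen, was at 337, 350.4 and 343 CPM in control and at 244, 273 and 243 CPM in BMP-inhibited libraries (log2 fold change -0.44). Neu1, a sialidase, was at 49.2, 52.03 and 53.8 CPM in control and at 31.7, 39.01 and 32.5 CPM in BMP-inhibited libraries (log2 fold change -0.59). Glb1, beta-galactosidase, was at 197, 196 and 195 CPM in control and at 128, 158 and 138 CPM in BMP-inhibited libraries (log2 fold change -0.47). In all 4 of these genes BMP-inhibited replicate 2 was the highest of its group and still below the controls. Gla, alpha-galactosidase A, also fell (log2 fold change -0.27, SE 0.08).

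The 2 mannosidase genes went the other way. Manba, beta-mannosidase, was at 169.6, 166 and 164 CPM in control and at 218, 243 and 218 CPM in BMP-inhibited libraries, a log2 fold change of 0.44 with SE 0.05 (adjusted p = 8.02e-07). Man2b1, lysosomal alpha-mannosidase, was at 156, 160.1 and 157 CPM in control and at 194, 218 and 198 CPM in BMP-inhibited libraries, a log2 fold change of 0.37 (SE 0.05). Both are abundant genes, and all their BMP-inhibited libraries lay above the controls. Fuca1, alpha-fucosidase, had a log2 fold change of 0.13 and did not pass (adjusted p = 0.0809), although its groups did not overlap and it passed without BMP-inhibited replicate 1 (log2 fold change 0.18, adjusted p = 0.0133).

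Among 7 enzymes of glycosaminoglycan breakdown 4 fell (57.1%), 1 rose (14.3%) and 2 did not pass, where 31.7% of all genes tested fell and 32.5% rose. Sgsh, which removes sulfate groups from heparan sulfate, had the largest fall of the 54 genes. Sgsh (ENSMUSG00000005043, chromosome 11, 119343425 to 119355536) was at 12.2, 13.9 and 11.6 CPM in control and at 4.97, 6.36 and 4.60 CPM in BMP-inhibited libraries. Every BMP-inhibited library was far below the controls, a log2 fold change of -1.25 with SE 0.13 (adjusted p = 5.07e-07). Idua, alpha-L-iduronidase, was at 38.1, 37.7 and 37.7 CPM in control and at 16.1, 19.7 and 18.1 CPM in BMP-inhibited libraries, a log2 fold change of -1.07 (SE 0.08). Galns, a sulfatase of keratan sulfate, was at 11.9, 11.1 and 10.3 CPM in control and at 7.59, 8.67 and 7.74 CPM in BMP-inhibited libraries (log2 fold change -0.47). These groups were separate too.

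Other enzymes of this class moved less evenly. Ids, iduronate-2-sulfatase, which acts just before Idua on the same chains, rose from 13.3, 12.5 and 13.4 CPM in control to 17.3, 17.4 and 17.1 CPM in BMP-inhibited libraries (log2 fold change 0.40, SE 0.08). Naglu, an N-acetylglucosaminidase, was at 6.26, 5.296 and 5.16 CPM in control and at 2.94, 5.297 and 3.87 CPM in BMP-inhibited libraries. Its groups overlapped, and its fall (log2 fold change -0.47, SE 0.18, adjusted p = 0.0358) no longer passed without control replicate 1 or 2 or BMP-inhibited replicate 1 or 3, where the adjusted p was 0.145, 0.0586, 0.155 and 0.0981. Without BMP-inhibited replicate 1 its log2 fold change was -0.28. Gusb, beta-glucuronidase, had a log2 fold change of 0.02 (95% interval -0.14 to 0.18). Arsb, near 1 CPM, had one of -0.50, with an interval from -1.16 to 0.16 that the low counts leave wide.

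Of the 7 genes for lipid enzymes, saposins and progranulin 5 fell (71.4%), 1 rose (14.3%) and 1 did not pass. Over all genes tested 31.7% fell and 32.5% rose. Arsa, arylsulfatase A, which degrades the myelin lipid sulfatide, was at 41.3, 36.99 and 43.2 CPM in control and at 19.4, 22.4 and 19.8 CPM in BMP-inhibited libraries. The groups were far apart, a log2 fold change of -0.98 with SE 0.08 (adjusted p = 2.7e-08). Ppt1, which removes palmitate from proteins, was at 68.7, 68.9 and 64.9 CPM in control and at 47.4, 43.4 and 44.2 CPM in BMP-inhibited libraries (log2 fold change -0.58). Asah1, acid ceramidase, was at 318, 303 and 313 CPM in control and at 245, 239 and 238 CPM in BMP-inhibited libraries (log2 fold change -0.37). In Ppt1 and Asah1 BMP-inhibited replicate 2 was not the highest of its group.

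Psap, the precursor of the saposins that present lipids to hydrolases, is among the most abundant genes of this set. It was at 855, 834 and 869 CPM in control and at 741, 747 and 756 CPM in BMP-inhibited libraries, a fall of small size (log2 fold change -0.19, SE 0.04, adjusted p = 0.000344). Grn, progranulin, fell by 0.17 on the log2 scale (adjusted p = 0.0148). Lipa, acid lipase, which frees cholesterol and fatty acids from lipoprotein lipids, went against the others. Lipa (ENSMUSG00000024781, chromosome 19, 34492318 to 34527474) was at 2.28, 2.48 and 2.29 CPM in control and at 7.56, 8.12 and 7.16 CPM in BMP-inhibited libraries. All 3 BMP-inhibited libraries were well above the controls, a log2 fold change of 1.69 with SE 0.14 (adjusted p = 4.2e-08). Smpd1, acid sphingomyelinase, had a log2 fold change of 0.16 (95% interval -0.05 to 0.37) and passed as higher without BMP-inhibited replicate 1 (0.24, adjusted p = 0.0375).

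Of the 12 V-ATPase genes in the set 8 fell (66.7%) and 0 rose, against 31.7% and 32.5% of all genes tested. All 6 V0 and accessory genes fell, with a median log2 fold change of -0.48, while 2 of 6 V1 genes fell and 4 did not pass, with a median of -0.06. The V1 share that fell, 33.3%, was near that of all genes tested. The difference between the V0 and V1 genes was not tested, and V-ATPase genes outside the set, given below, include V0 genes that rose and a V1 gene that fell. Atp6v0d1, a V0 subunit at the interface with V1, was at 194, 192 and 199.7 CPM in control and at 118, 127 and 116 CPM in BMP-inhibited libraries, a log2 fold change of -0.69 with SE 0.05 (adjusted p = 3.66e-09). Atp6v0b, a proteolipid of the proton-carrying ring, was at 178, 174 and 183 CPM in control and at 110.2, 135 and 123 CPM in BMP-inhibited libraries (log2 fold change -0.54). Atp6v0a1, an isoform of the large subunit that forms the proton path, was at 87.5, 94.3 and 93.03 CPM in control and at 53.99, 68.2 and 55.7 CPM in BMP-inhibited libraries (log2 fold change -0.63). All of these groups were apart. The accessory gene Atp6ap1 was at 146, 148 and 147 CPM in control and at 107, 111 and 113 CPM in BMP-inhibited libraries (log2 fold change -0.42). Atp6ap2, the other accessory subunit, also called the prorenin receptor, was at 150.1, 146 and 152 CPM in control and at 118, 122 and 128 CPM in BMP-inhibited libraries (log2 fold change -0.28). Atp6v0c, the main ring proteolipid, fell by 0.29 on the log2 scale, and its groups did not overlap either.

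In the V1 part, Atp6v1e1, of the peripheral stalk, was at 153, 141 and 157 CPM in control and at 97.8, 112 and 105 CPM in BMP-inhibited libraries, a log2 fold change of -0.52 with SE 0.05 (adjusted p = 6.72e-07). Atp6v1a, the catalytic subunit, was at 272, 274 and 273 CPM in control and at 222, 248 and 203 CPM in BMP-inhibited libraries, a log2 fold change of -0.29 (SE 0.06). In both genes the groups did not overlap. Atp6v1b2, which pairs with the catalytic subunit in the ATP-hydrolysing ring, was at 276, 264 and 269.7 CPM in control and at 259.5, 269 and 269.7 CPM in BMP-inhibited libraries. Atp6v1c1, which links the peripheral stalks, was at 136, 134 and 135 CPM in control and at 133, 137 and 125 CPM in BMP-inhibited libraries. Atp6v1d, of the central rotor, was at 104, 104 and 104 CPM in control and at 91.0, 106 and 97.3 CPM in BMP-inhibited libraries. Those 3 genes and Atp6v1h overlapped between the groups, and their 95% intervals ran from -0.11 to 0.06 for Atp6v1b2, -0.13 to 0.06 for Atp6v1c1, -0.19 to 0.04 for Atp6v1d and -0.12 to 0.08 for Atp6v1h. Atp6v1d passed as lower under scaling by library totals (-0.14, adjusted p = 0.0422) and without BMP-inhibited replicate 2 (-0.14, adjusted p = 0.0125).

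**Figure D3:**
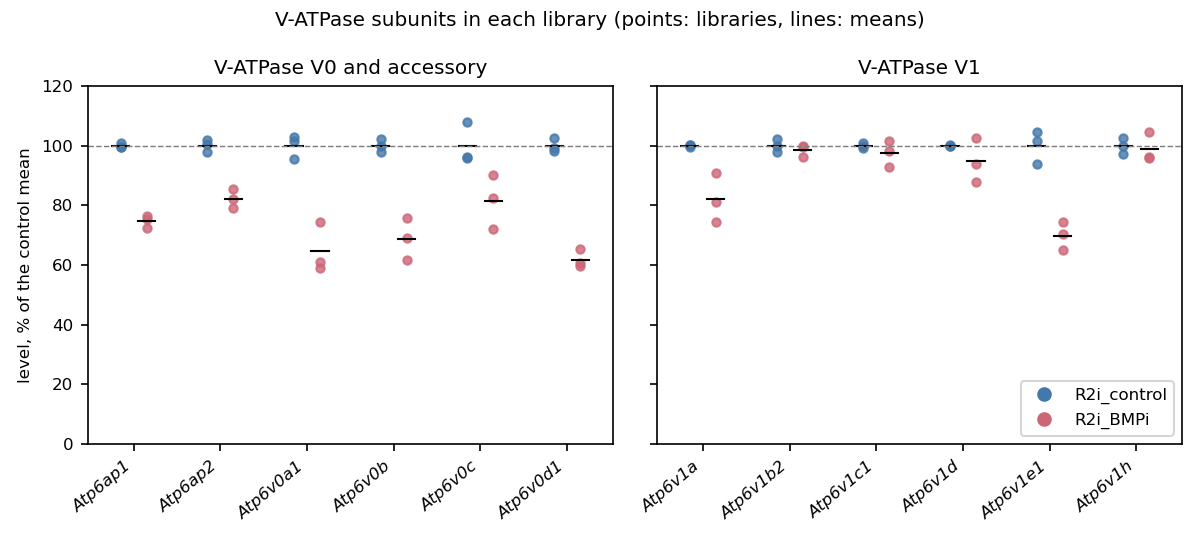
Level of each V-ATPase gene in every library as a percentage of its control mean, with lines for the group means. All BMP-inhibited libraries lie below all controls for the 6 V0 and accessory genes and for Atp6v1a and Atp6v1e1, while the groups overlap for Atp6v1b2, Atp6v1c1, Atp6v1d and Atp6v1h.

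Set against the promoter letters shown above, 6 of the 7 genes with TCACGTGA fell (85.7%) and 0 rose. Their median log2 fold change was -0.29. They ranged from -0.86 for Ctsa, -0.72 for Mcoln1 and -0.69 for Atp6v0d1 to -0.29 for Atp6v1a, -0.27 for Gla and -0.22 for Cln3, while Ctsd was at 0.07. Of the 39 genes whose window lacked the 8-base motif, 26 fell (66.7%) and 6 rose (15.4%), with a median of -0.36. For the core CACGTG, 14 of 16 genes fell (87.5%) and 1 rose (6.25%), with a median of -0.47. Without it 18 of 30 fell (60%) and 5 rose (16.7%), with a median of -0.29. The shares over all genes tested were 31.7% lower and 32.5% higher. Of the 6 genes with the lowest fold changes, Sgsh, Ctsl and Arsa held the core and Lamp2, Idua and Hexa did not, and none of the 6 held the 8-base motif. Among the genes that rose, Ctsf was the only one with the core, and Ctsh had no window in the table. Whether genes with and without the letters differ was not tested, and no call rate is given here for other genes with these letters.

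The same comparison was made for other genes of the pathway, on lists chosen by function with earlier results of these data known. Of 81 tested on 5 further lists 40 fell (49.4%) and 15 rose (18.5%), with a median log2 fold change of -0.15. Over all genes tested 31.7% fell and 32.5% rose. Further hydrolases had 15 lower (60%) and 4 higher (16%) of 25 tested (median -0.24). Man2b2, a relative of the mannosidase Man2b1, fell by 1.18 on the log2 scale, the nuclease gene Dnase2a by 0.92, the fucosidase gene Fuca2 by 0.64 and the acid phosphatase gene Acp2 by 0.61. Within the alpha-mannosidases, Man2b2 fell and Man2b1 rose. Further membrane proteins had 8 lower (40%) and 5 higher (25%) of 20 (median -0.01). Laptm4b was at -0.90 and the potassium and proton channel gene Tmem175 at -0.80. The sialic acid exporter gene Slc17a5 was at -0.68 and the nucleoside transporter gene Slc29a3 at 0.75. With library totals only 3 of the 20 were higher, and likewise without control replicate 2 or 3.

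Other V-ATPase genes had 2 lower and 2 higher of 9 tested (median -0.06). These shares, 22.2% each, were below the 31.7% and 32.5% of all genes tested. Atp6v1g1, a stalk subunit of V1, was at -0.44, and Atp6v0a4, an a-subunit isoform known from kidney and inner ear, at -0.76. Tcirg1, the a-subunit isoform of osteoclasts, rose by 0.43, from 18.4, 17.9 and 19.1 CPM in control to 24.8, 24.1 and 25.9 CPM in BMP-inhibited libraries, and the V0 gene Atp6v0e rose by 0.16 (adjusted p = 0.0327). Atp6v0a2, a further V0 isoform, had a log2 fold change of -0.06 and did not pass. V0 genes outside the set thus moved in both directions. With library totals only 4 of these 9 were lower, and 1 was higher with library totals only, with upper-quartile factors, and without BMP-inhibited replicate 2 or 3 or any single control replicate.

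Genes that tag and carry hydrolases to the lysosome through mannose 6-phosphate and other sorting signals were lower for 9 of 14 and higher for 2 (median -0.35). This is 64.3% lower and 14.3% higher, against 31.7% and 32.5% of all genes tested. Igf2r, the large mannose 6-phosphate receptor, was at 228, 227 and 220.3 CPM in control and at 146, 129.9 and 120.2 CPM in BMP-inhibited libraries, a log2 fold change of -0.77 (SE 0.06). The groups were far apart. The sorting receptor gene Sort1 was at -0.76, Gnptg, a subunit of the enzyme that adds the tag, at -0.73, and the adaptor gene Gga2 at -0.36.

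The list of genes acting upstream of TFEB, TFE3 and MITF also held Zkscan3, and Tfec, which was not tested. The list had 6 lower (46.2%) and 2 higher (15.4%) of 13 tested (median -0.10). Over all genes tested 31.7% fell and 32.5% rose. Rragb, one of the Rag GTPases that recruit mTORC1 and these factors to the lysosome, was at 52.8, 53.2 and 52.6 CPM in control and at 12.5, 17.1 and 14.3 CPM in BMP-inhibited libraries. That fall, a log2 fold change of -1.85 with SE 0.09 (adjusted p = 9.51e-11), exceeded that of any gene of the set of 54. Rragd, itself known as a target of these factors, fell by 0.71 on the log2 scale, Rraga by 0.23, and Zkscan3, described as a repressor of autophagy and lysosomal genes, by 0.98. Flcn, which encodes folliculin, had a log2 fold change of -0.03 and did not pass (adjusted p = 0.598). The count of 2 higher, Rragc and Lamtor4, was 0 with library totals only, and 1 with upper-quartile factors, without BMP-inhibited replicate 2 or 3 and without any single control replicate.

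**Figure D4:**
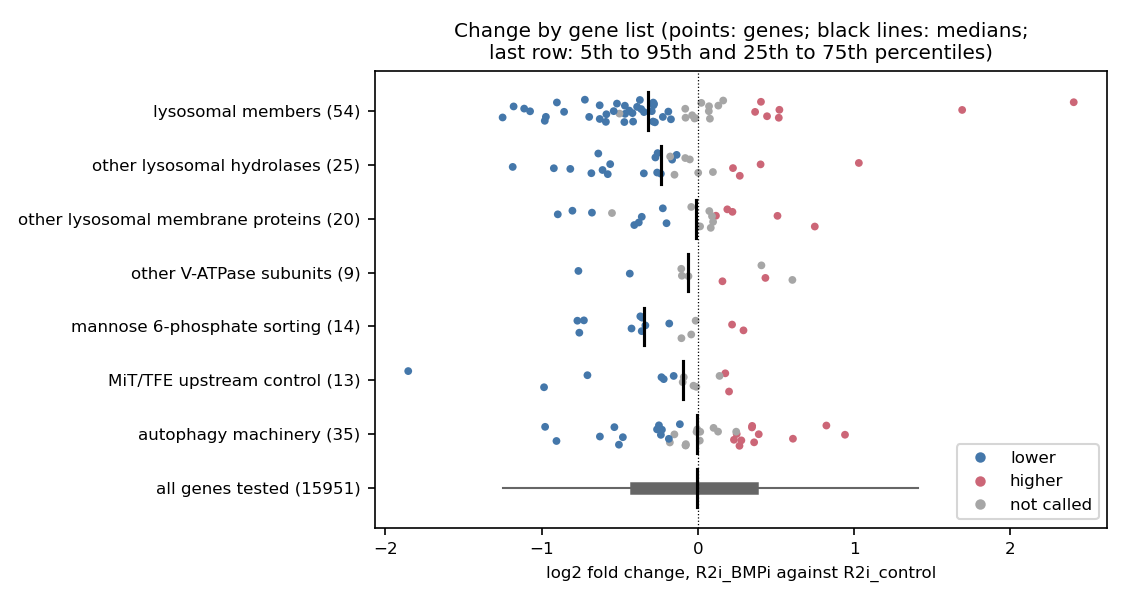
Log2 fold change of each tested gene of the 54-gene set and of 6 further lists, coloured by call, with black lines for the medians; the last row gives the percentiles of all 15951 genes tested. The medians of the 54 genes (-0.32) and of the sorting genes (-0.35) lie furthest to the left, and that of the autophagy list (-0.01) lies at the median of all genes.

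Counting can affect single values. Of the 54 genes 19 have exons that overlap another annotated gene, and reads in the shared stretches may have been left out of their counts. The strand setting of the counting is not given in the sources used here, so reads of antisense partners may also be included. Ctsl, Ctsd and Glb1 overlap a gene on the same strand, while Lamp1, Npc1, Cln3, Ctsa, Ctsb, Ctsz, Hexa, Idua, Sgsh, Arsb, Arsa, Ppt1, Grn, Atp6v0b, Atp6v1e1 and Atp6v1h overlap an antisense gene. Among the 19, 15 fell (78.9%) and 0 rose (median -0.50). Among the 33 genes with neither an overlap nor a near-identical copy 18 fell (54.5%) and 7 rose (21.2%), with a median of -0.27. The shares over all genes tested were 31.7% lower and 32.5% higher. Of the 4 genes at least 2-fold lower, Sgsh, Ctsl and Idua are among the 19 and Lamp2 is among the 33. Whether the overlaps bear on the falls was not tested. Among the genes named outside the set, Dnase2a, Acp2, Tmem175, Atp6v0a2, Atp6v0a4, Gnptg, Sort1, Gga2, Rragc, Pou5f1, Tfcp2l1 and Csf1r have such overlaps. Atp6v0c and Cd63 have pseudogenes of near-identical sequence among which reads could be split. The control mean was 0.818 CPM for Atp6v0c-ps2 and 0.424 CPM for Cd63-ps, and no level is given here for Atp6v0c-ps1. Ctsd and Arsb also have near-identical copies among the genes that overlap them. Gm49369 matches 31.5% of the longest coding transcript of Ctsd, and Gm26527 matches 48.5% of that of Arsb.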

How the data were processed

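Polyadenylated RNA of 6 cultures was sequenced from stranded libraries on an Illumina instrument, per the labels' protocols. The deposited values are raw read counts per gene, which the authors made with CASAVA 1.8.2, cutadapt 1.4.2, STAR 2.6.1 and HTSeq 0.9.1 on GRCm38.p6, per the submitters' processing notes, which also name DESeq2. The annotation release and strand setting are not given in the sources used here. Rows that name no gene, 25.6 to 26.4% of reads, were left out. Gene symbols, places and exon overlaps came from GENCODE M21, which matched 53360 of 53465 gene identifiers.

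Genes passing filterByExpr (minimum count 10, minimum total 15) were tested with edgeR 4.0.16 (R 4.3.3) by TMM scaling and the quasi-likelihood test on the group alone, with Benjamini-Hochberg adjustment over 15951 genes and a threshold of 0.05. CPM values use the same scaling. Fold changes are fitted without shrinkage. The procedure was tested on simulated counts with 50 genes changed at each of 4 fold changes. It recovered 68% at 1.3-fold, 82% at 1.5-fold, 90% at 2-fold and 98% at 4-fold, and 6.11% of its calls were false. Far fewer genes were changed there than passed in these data. Alternatives used other scaling factors, other filters, a replicate block, limma-voom (limma 3.58.1), DESeq2 1.42.0 and each replicate left out. BLAST 2.17.0 served to find near-identical copies (at least 90% identity over 30% of the longest coding transcript). Motifs were searched in Python 3.11.15. Same-numbered control and BMP-inhibited libraries did not deviate together.

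The genes, their role groups and the further lists were chosen with earlier results of these data known. By the rule for names, the set of 54 is described by role, and up to 4 genes with the smallest p are named from each further list. Flcn, Rragc, Lamtor4 and Atp6v0a2 and the single marker genes given with values were named after their values were seen. P-values measure the spread between these libraries, and depth was similar in all 6.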

Additional observations from a re-analysis of the deposited data

How the results depend on the processing

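Under 14 alternatives 34 to 37 of the 54 genes were lower and 6 to 10 higher, and 9104 to 10890 genes passed in all. All 42 calls among the 54 genes were kept with RLE, upper-quartile or library-total scaling, without a filter, with limma-voom, with DESeq2, and when control replicate 3 or BMP-inhibited replicate 2 was left out. The stricter filter, 50 counts in 3 libraries, did not test Ctsh, and Naglu was lost without 4 of the 6 libraries, each in turn. Genes that passed in addition are given beside their values above. No called gene changed direction; those that changed sign (Gusb, Tfeb, Atp6v1h and Atp6v1c1) had not passed. Library totals shifted the median of all genes to -0.06. The promoter share of 15.2% for the 8-base motif was 34.8% for its 6-base core, which is shorter. With the replicate number as a block, 10210 genes passed and 35 of the 54 were lower and 7 higher, with the same calls. The correlations of deviations between same-numbered libraries were -0.0443, 0.00791 and 0.0287, so no shared deviation was seen. Such correlations cannot tell whether same-numbered cultures were handled together. With 3 libraries a group, Arsb and Ctsh, near 1 CPM or below, were measured least precisely.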

Other observations

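Autophagy genes, which build and load the vesicles that fuse with lysosomes, were called at about the background rate: of 35 tested 12 fell (34.3%), 11 rose (31.4%) and 12 did not pass, where 31.7% of all genes tested fell and 32.5% rose. Their median log2 fold change was -0.01, against -0.0031 over all genes. Whether the list differs from the lysosomal genes was not tested. Gabarapl2, an ATG8-family protein of the autophagosome membrane, was at 119, 119.6 and 119 CPM in control and at 230.4, 219 and 237 CPM in BMP-inhibited libraries, a log2 fold change of 0.94 (SE 0.04, edgeR adjusted p = 7.93e-11). All BMP-inhibited libraries lay well above the controls. Atg14, a subunit of the lipid kinase complex that starts autophagosomes, rose by 0.82 and overlaps an antisense gene. Wipi1, which binds the lipid this complex makes, fell by 0.90 on the log2 scale, and the receptor gene Calcoco1 fell by 0.53.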
